A study of Mus musculus with 12 samples.

Results

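Atg5-knockout and control blood eosinophils were compared in 3 libraries of each genotype, which are 6 of the 12 RNA-seq libraries of the study. The other libraries came from bone marrow eosinophils of the same genotypes. The Atg5-knockout mice were Atg5 flox/flox eoCre Il5tg and the control mice eoCre Il5tg, so that both groups carried the Cre recombinase knocked into the eosinophil peroxidase gene (Epx) and an Il5 transgene under the Cd3d promoter. The knock-in takes up an Epx allele, and the transgene makes T cells produce interleukin-5 and expands eosinophils, which limits both groups as models of normal blood. Eosinophils were enriched from blood by density centrifugation, lysis of erythrocytes in water and depletion of other leukocytes with antibodies. The labels give each library a genotype, a tissue and a replicate number, but neither the age of the animals nor what libraries of the same number share, so p-values measure the spread between these libraries, which may be technical. Of the 53801 genes in the count table, 13460 had enough counts in blood to be tested.

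ATG5 is part of the conjugation complex that attaches LC3 to the growing autophagosome, the vesicle that carries cytoplasm and organelles to the lysosome. Eosinophils are granulocytes that depend on interleukin-5 and are filled with granules of cationic proteins such as major basic protein and the eosinophil-associated ribonucleases. They also make lipid mediators from arachidonic acid, among them leukotrienes, and carry paired activating and inhibitory immunoglobulin-like receptors on their surface.

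Each blood library held between 18885052 and 25072780 counts on genes. Same-numbered libraries shared their deviations from the group means (correlations over genes of 0.568, 0.262 and 0.35), and the replicate number was used as a block. Expression is given as CPM, the counts scaled to a common library size with TMM factors. Differences are log2 fold changes, Atg5-knockout minus control, with their standard error (SE), and p-values come from edgeR's quasi-likelihood test with Benjamini-Hochberg adjustment over the 13460 genes. The median log2 fold change over all tested genes was 0.014.

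Markers of the cells that the libraries should and should not hold were examined. The 12 eosinophil markers took 1.94, 3.02 and 2.9% of the counts in Atg5-knockout libraries 1, 2 and 3 and 2.38, 3.14 and 4.19% in the controls, and were present in every library. The 17 red cell markers took 14.8, 0.551 and 1.45% in the controls and 0.746, 0.432 and 0.57% in the Atg5-knockout libraries, so control 1 stood apart. The 12 B cell markers took 0.296, 0.0554 and 0.0411% in the Atg5-knockout libraries and 0.142, 0.041 and 0.0218% in the controls, and the 16 T and NK cell markers 0.0796, 0.0539 and 0.0441% and 0.075, 0.0362 and 0.0286%. Both libraries numbered 1 were the highest of their groups on these lists. Within every pair the eosinophil, red cell and platelet shares were lower, and the B cell and the T and NK cell shares higher, in the Atg5-knockout library. In bulk RNA, fewer cells of a type and less RNA per cell cannot be told apart.

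**Figure D1:**
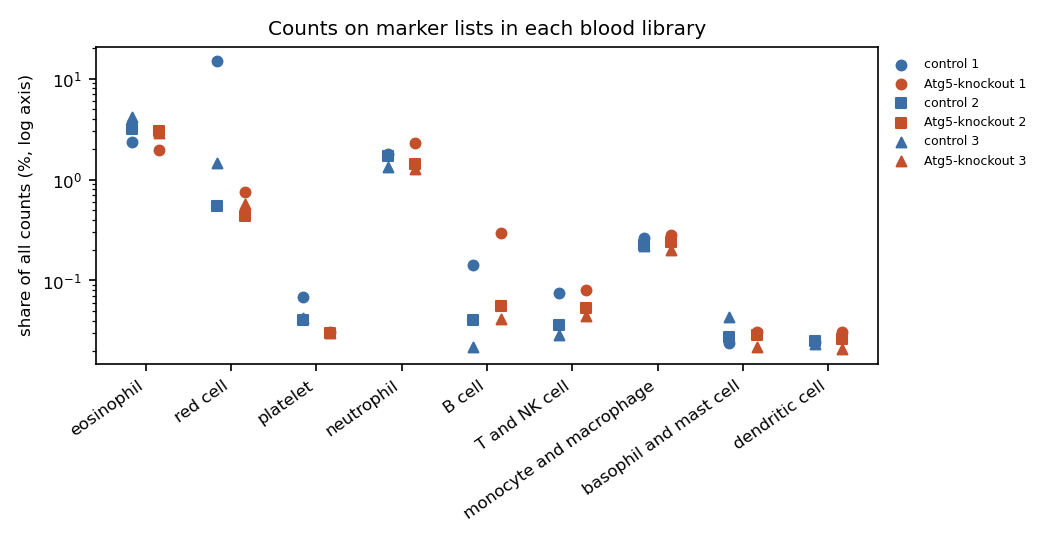
Share of all counts (%, log axis) that fell on 9 lists of cell type markers in each of the 6 blood libraries, with the colour giving the genotype and the symbol the replicate number. The red cell share of control 1 (14.8%) lies above the other 5 libraries (0.432 to 1.45%), and both libraries numbered 1 lie above the others on the B cell list.

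Atg5 transcripts did not separate the groups. Atg5 had 33.5, 47.9 and 48.5 CPM in the Atg5-knockout libraries and 41, 53.3 and 36.3 CPM in the controls. The groups overlapped, with a log2 fold change of -0.0094 ± 0.18 (SE) and an adjusted p of 0.994 in edgeR's test. The counts sum all exons of the gene, so they do not show whether the floxed part was deleted. The study examined Atg5 by quantitative PCR and ATG5 by immunoblot in eosinophils of both tissues. In bone marrow Atg5 had 33.4, 33.8 and 37.1 CPM in the Atg5-knockout libraries and 45.5, 51.1 and 44.8 CPM in the controls. The groups did not overlap there (log2 fold change -0.44, adjusted p = 0.157 in edgeR's test). Of the genes that flank Atg5 on chromosome 10, 6 were tested, and 0 had an unadjusted p under 0.05 in edgeR's test.

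In edgeR's test 10 genes (0.0743% of the tested genes) passed an adjusted p under 0.05. Of these, 7 (0.052%) rose and 3 (0.0223%) fell with Atg5 knockout. The 7 genes that rose and 1 (0.00743%) of those that fell also passed a log2 fold change beyond 2, the fold threshold the study used. Without adjustment, p was under 0.05 for 568 genes in the higher direction (4.22%) and 453 in the lower (3.37%). For each of the 10 genes the values of the groups did not overlap, which held for 7.48% of all tested genes, 3.92% with the Atg5-knockout libraries above and 3.56% with them below. All 10 also passed without control 1. In that fit Atg5-knockout 1 has no partner in the block, so only pairs 2 and 3 give the difference. Both pairs are also part of the full fit, so this is not a separate check, and the fit called more genes (39) from fewer libraries. The 10 genes comprised 6 protein-coding genes, 2 long non-coding RNAs and 2 pseudogenes, and lay at 5 places in the genome.

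**Figure D2:**
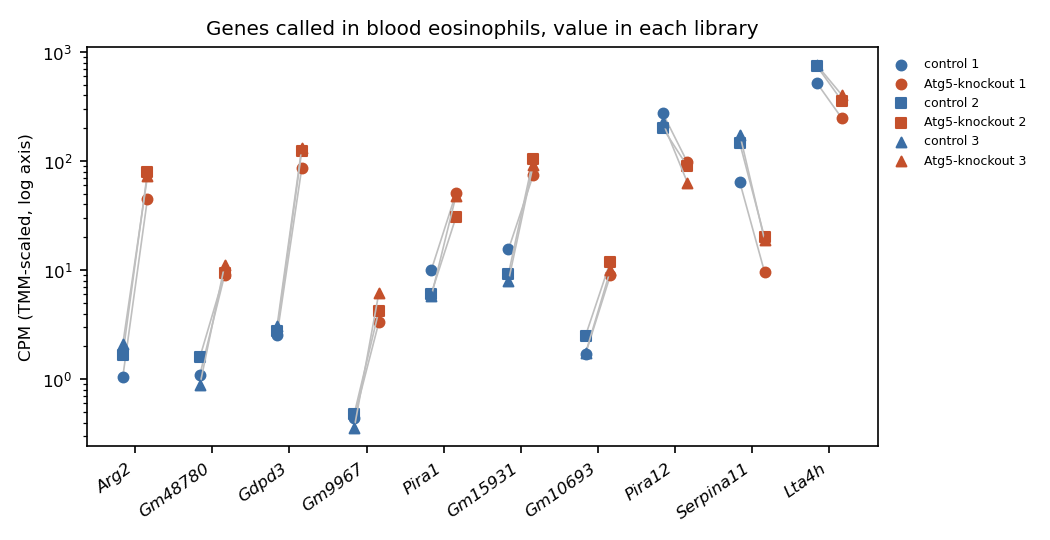
CPM (log axis) of the 10 genes with an adjusted p under 0.05 in each blood library, with the colour giving the genotype, the symbol the replicate number, and a line joining libraries of the same number. The groups do not overlap for any of the 10 genes, and the gap is widest for Arg2 and Gdpd3.

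Arg2, which encodes the mitochondrial arginase that splits arginine into ornithine and urea, was with Gdpd3 the gene of largest fold difference among the 10, and their log2 fold changes of 5.36 and 5.34 lay within a standard error of each other. It lies on chromosome 12 from 79130777 to 79156301 (GRCm38, plus strand). It had 45.2, 78.5 and 72.8 CPM in the Atg5-knockout libraries and 1.05, 1.68 and 2.09 CPM in the controls. Every Atg5-knockout value was far above the highest control, and the spread within each group was small beside this gap. Arg2 rose by a log2 fold change of 5.36 ± 0.20 (SE), or 41-fold, with an adjusted p of 5.45e-06 in edgeR's test, and by 5.32, 5.48 and 5.07 in pairs 1, 2 and 3. Gm48780, a non-coding gene of the minus strand whose 997 bases all lie within Arg2, had 9, 9.31 and 11.1 CPM against 1.1, 1.6 and 0.888 CPM, a rise of 3.04 ± 0.31 (adjusted p = 0.00996). The counting did not use the strand, so reads of Gm48780 and Arg2 over these bases cannot be told apart.

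The other genes of arginine and polyamine metabolism gave no such difference. Of the 23 tested members Arg2 alone passed, 9 had a positive log2 fold change, and the median was -0.06, or -0.22 without control 1. Arg1, the cytosolic arginase, had 0, 1 and 0 counts in the Atg5-knockout libraries and 14, 3 and 6 in the controls, too few to be tested. Smox, which oxidizes spermine, had 18.9, 6.02 and 4.87 CPM against 78.9, 9.22 and 6.26 CPM (log2 fold change -1.06, adjusted p = 0.518, and -0.49 without control 1). Oaz1, the antizyme that restrains polyamine synthesis, had 308, 333 and 354 CPM against 463, 433 and 439.7 CPM (adjusted p = 0.537). The groups did not overlap for Oaz1, but neither gene passed the test. Sat1, the spermidine acetyltransferase, had a log2 fold change of 0.092.

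Gdpd3 encodes a glycerophosphodiester phosphodiesterase with lysophospholipase D activity. It lies on chromosome 7 from 126766334 to 126775649 (GRCm38, plus strand). It had 85.9, 124 and 132 CPM in the Atg5-knockout libraries and 2.54, 2.75 and 3.06 CPM in the controls. The controls were all low and close together, and the groups were as widely separated as those of Arg2. Gdpd3 rose by a log2 fold change of 5.34 ± 0.19 (SE), or 40.5-fold (adjusted p = 5.45e-06 in edgeR's test). Gm9967, a non-coding gene of the other strand that shares 7568 bases with the span of Gdpd3, had 3.33, 4.25 and 6.2 CPM against 0.442, 0.479 and 0.355 CPM, a rise of 3.38 ± 0.43 (adjusted p = 0.0411). Its reads and those of Gdpd3 were likewise not separated by strand. It missed the threshold without Atg5-knockout 3 and without control 3 (adjusted p = 0.143 and 0.0649), and without the replicate block (0.0775).

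Serpina11, a member of the clade A serine protease inhibitors, was the gene that fell past both thresholds. It lies on chromosome 12 from 103980243 to 103989957 (GRCm38, minus strand). It had 9.63, 19.9 and 18.9 CPM in the Atg5-knockout libraries and 63.7, 145 and 174 CPM in the controls. Both libraries numbered 1 were low within their groups, yet the groups did not overlap. Serpina11 changed by -2.93 ± 0.17 (SE) on the log2 scale, with an adjusted p of 0.000133 in edgeR's test, and by -2.71, -2.86 and -3.20 in the 3 pairs. Without the replicate block the log2 fold change was -2.98 and the adjusted p 0.107.

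The start regions of Gdpd3 and Serpina11 are printed because they had the largest differences among the 4 called genes with a promoter in the RefSeq table (GRCm38.p6) used here. They run 5′ to 3′ from 250 bases before to 50 bases after the start. Both strands were searched for TGATGNAA, the amino acid response element bound by ATF4, for the core of the interferon-stimulated response element (GAAA, any 2 bases, GAAA), and for the CArG box of serum response factor. Over the 9446 tested genes with a promoter these letters were found in 2.87, 4.01 and 1.59%, and none was found in these windows, which are therefore in lower case throughout.
Gdpd3, chr7:126766164-126766463, plus strand: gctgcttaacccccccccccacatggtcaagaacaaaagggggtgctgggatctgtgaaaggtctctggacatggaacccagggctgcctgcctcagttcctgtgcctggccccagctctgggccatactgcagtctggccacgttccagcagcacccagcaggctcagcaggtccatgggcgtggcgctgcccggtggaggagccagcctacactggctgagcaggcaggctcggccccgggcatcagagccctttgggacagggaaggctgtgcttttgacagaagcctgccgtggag
Serpina11, chr12:103989908-103990207, minus strand: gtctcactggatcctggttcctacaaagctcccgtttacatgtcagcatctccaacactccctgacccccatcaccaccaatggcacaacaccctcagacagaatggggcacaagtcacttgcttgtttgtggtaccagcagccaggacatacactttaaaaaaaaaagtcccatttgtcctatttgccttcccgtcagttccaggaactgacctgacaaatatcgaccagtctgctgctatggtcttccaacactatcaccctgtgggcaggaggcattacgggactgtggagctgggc

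Of the 10 genes, 4 lay in or near the cluster of paired immunoglobulin-like receptors on chromosome 7, and together spanned 3731630 to 4282645. Gm15931 lay 376069 bases from Pira12, the nearest other called gene. Products of the Pira genes are activating receptors that signal through the Fc receptor γ chain, and Pirb encodes their inhibitory partner. Pira1 had 50.8, 30.7 and 48.3 CPM in the Atg5-knockout libraries and 10, 6.1 and 5.77 CPM in the controls, and rose by 2.57 ± 0.21 on the log2 scale (adjusted p = 0.00223 in edgeR's test). The pseudogene Gm15931 had 74.1, 104 and 91.9 CPM against 15.5, 9.22 and 7.94 CPM and rose by 3.09 ± 0.26 (adjusted p = 0.0027). Its difference was 2.25, 3.48 and 3.52 in pairs 1, 2 and 3, and so was smallest in the pair that holds control 1. The pseudogene Gm10693 had 8.93, 11.9 and 9.94 CPM against 1.71, 2.51 and 1.73 CPM and rose by 2.38 ± 0.25 (adjusted p = 0.0118, and 0.0775 without the replicate block).

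Pira12 fell. It had 97.4, 89.4 and 63.5 CPM in the Atg5-knockout libraries and 275, 201 and 227 CPM in the controls, a log2 fold change of -1.50 ± 0.17 (adjusted p = 0.0148 in edgeR's test, and 0.136 without the replicate block). Pira13, Pira2 and Pirb had log2 fold changes of -1.0, -0.80 and -0.61 (adjusted p = 0.137, 0.304 and 0.363). Lilra5, a leukocyte immunoglobulin-like receptor, had 11.5, 9.27 and 11.3 CPM against 4.47, 2.87 and 1.77 CPM (log2 fold change 1.88, adjusted p = 0.137), and passed without control 1 (adjusted p = 0.00912). Genes of the cluster are close paralogs, and reads that matched several of them were not counted, so the values of single members are uncertain. Over the 22 tested inhibitory and paired receptors, which include genes elsewhere, 11 were positive and the median was 0.015.

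Lta4h encodes leukotriene A4 hydrolase, the enzyme that makes leukotriene B4. It lies on chromosome 10 from 93453411 to 93484875 (GRCm38, plus strand). It had 248, 359 and 405 CPM in the Atg5-knockout libraries and 518, 739 and 757 CPM in the controls. The libraries numbered 1 were again the lowest of their groups, and the groups did not overlap. Lta4h fell, with log2 differences of -1.06, -1.04 and -0.90 in the 3 pairs (SE 0.13, adjusted p = 0.0444 in edgeR's test), but did not pass without the replicate block (adjusted p = 1).

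Of the 23 tested enzymes and receptors of the leukotriene and prostaglandin pathways no other gene passed, and the median was -0.034. Alox15, the 12/15-lipoxygenase that is abundant in eosinophils, had 1828, 2318 and 2059.6 CPM against 2637, 2947 and 2785 CPM (log2 fold change -0.44, adjusted p = 0.461 in edgeR's test). All controls were above all Atg5-knockout libraries for Alox15. Ptges3, the cytosolic prostaglandin E synthase, had a log2 fold change of 0.53 (adjusted p = 0.56).

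Neighbours of the called genes were examined because those genes lay at few places. Within 500 kb of the 5 places 109 other genes were tested, and 30 of them (27.5%) had an unadjusted p under 0.05, against 7.59% of all tested genes. Of these 30, 17 were in the higher and 13 in the lower direction, and 0 passed the adjusted threshold of edgeR's test. The share was 44.7% of 38 genes beside the receptor cluster, 33.3% of 9 beside Lta4h, 30% of 10 beside Arg2, 33.3% of 3 beside Serpina11 and 12.2% of 49 beside Gdpd3. The places were chosen after the calls were known, and genes of the receptor cluster share sequence.

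Genes of other families were among these neighbours. Beside Arg2, Rdh11, a retinol dehydrogenase, had a log2 fold change of 0.83, and Atp6v1d, a subunit of the lysosomal proton pump, had -0.73 (adjusted p = 0.229 and 0.246 in edgeR's test). Beside Lta4h, Hal, the histidine ammonia-lyase, had 1.88, and Cfap54, a gene of cilia, had 2.30 (adjusted p = 0.209 and 0.229). Beside the receptor cluster, Eps8l1, which encodes a regulator of actin, had -4.41, and Rps9, a ribosomal protein gene, had 0.72 (adjusted p = 0.171 and 0.219). In bone marrow 27 of the 30 were tested, 20 had the same direction as in blood, and 6 passed an adjusted p under 0.05, among them Hal at 1.12 and Eps8l1 at -5.66 (adjusted p = 0.0123 and 0.00833). The shares of all genes that kept their direction or passed in bone marrow are not given, so these counts have no background beside them. What sets these neighbours apart was not tested.

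**Figure D3:**
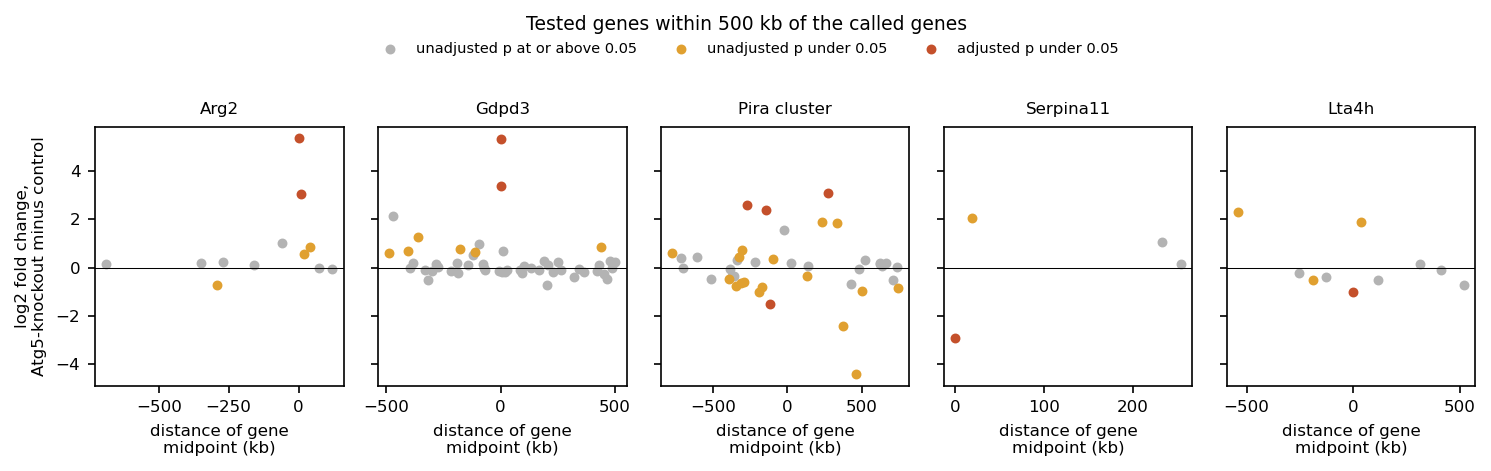
Log2 fold change (Atg5-knockout minus control) of the tested genes with any part within 500 kb of the called genes, against the distance in kb of the gene's midpoint from the middle of the called gene or cluster, in 5 panels. Colours mark the 10 called genes and the 30 neighbours with an unadjusted p under 0.05, of which 17 lie beside the receptor cluster.

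The called genes were set beside bone marrow eosinophils of the same genotypes, whose fit, unlike that of blood, had no replicate block. All 10 had the same direction there, and 7 also passed an adjusted p under 0.05 in edgeR's test. The matching shares over all genes are not given. Arg2 had 28.8, 28.7 and 32.3 CPM in the Atg5-knockout and 1.67, 1.75 and 1.72 CPM in the control bone marrow libraries, a log2 fold change of 4.12. For Pira12 the values overlapped, with 55, 66.3 and 70.4 CPM against 96.5, 56.9 and 73.6 CPM (log2 fold change -0.24, adjusted p = 0.678 in edgeR's test). Gm9967 and Gm10693 also missed the threshold in bone marrow, at 0.096 and 1.13 (adjusted p = 0.952 and 0.326).

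Whether Atg5 knockout acted differently in the 2 tissues was examined with an interaction term over all 12 libraries. EdgeR's test called 0 of 14712 genes, with 1658 (11.3%) at an unadjusted p under 0.05, while DESeq2 with the same terms called 165. The log2 fold change of Arg2 was larger in blood by 1.19 (unadjusted p = 8.53e-05, adjusted p = 0.123 in edgeR's test), and that of Gm9967 by 3.24 (adjusted p = 0.123). For Pira12 the difference between the tissues was -1.30 (adjusted p = 0.123). These differences missed the threshold in edgeR's test, whereas Gm9967 was among the 165 genes that DESeq2 called. Whether Arg2 and Pira12 were among the 165 is not given.

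Pathways were described with 37 lists, which held 942 tested genes. Only 4 of the 10 called genes, Arg2, Lta4h, Pira1 and Pira12, belonged to any of them. The medians of the lists ran from -0.317 to 0.409, 28 of them lay within 0.2 of 0, and 12 had the same sign in all 3 pairs. No list was tested as a whole, and the members' values are given beside those over all genes, of which 52% had a positive log2 fold change.

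**Figure D4:**
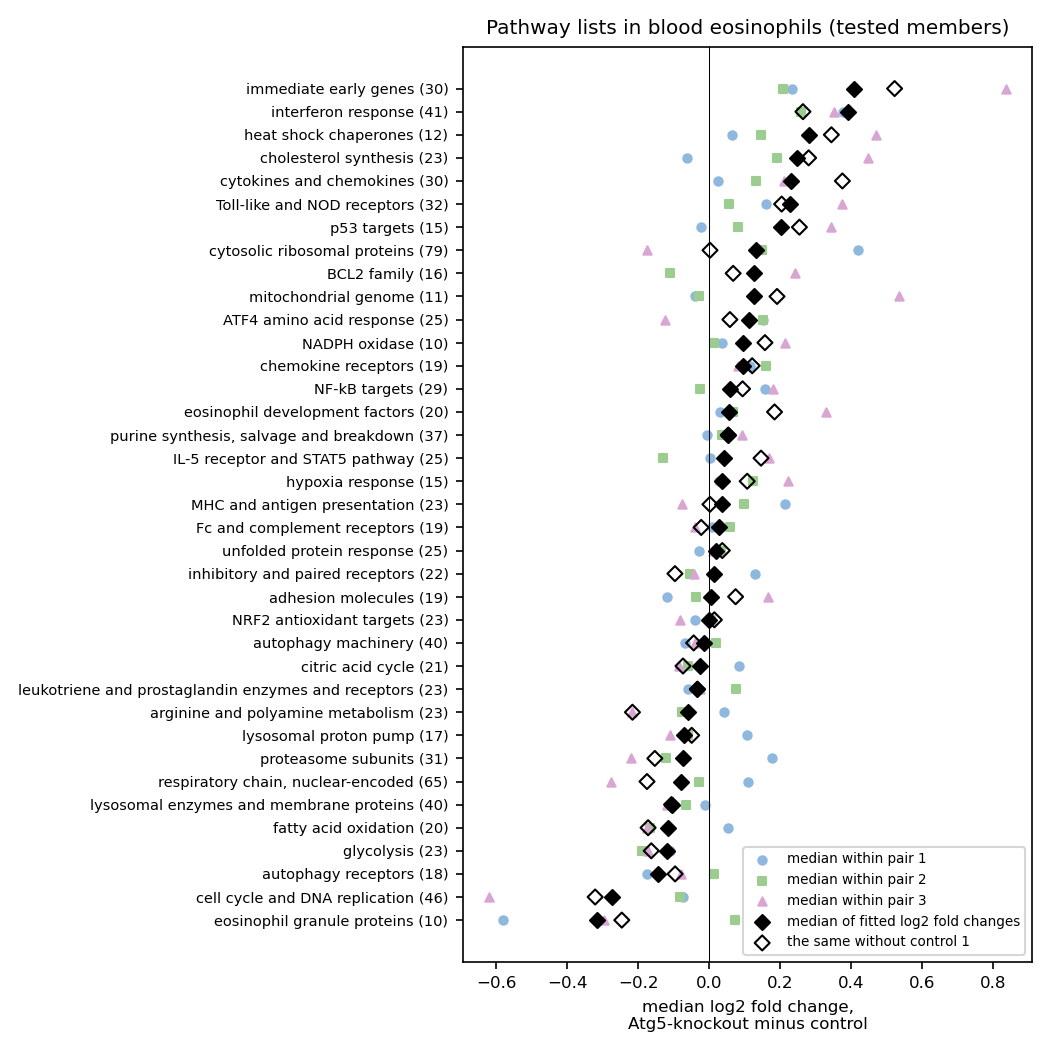
Median log2 fold change of the tested members of 37 pathway lists, with filled diamonds for all 6 libraries, open diamonds for the fit without control 1, and coloured symbols for the medians within pairs 1, 2 and 3. Immediate early genes (0.409) and the interferon response (0.391) have the highest medians and eosinophil granule proteins (-0.317) the lowest, and only 12 lists have the same sign in all pairs.

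The immediate early genes, which cells induce quickly after stimulation without new protein synthesis, had the highest median. Of 30 tested, 26 were positive and 15 were higher in all pairs, as were 16.5% of all genes. At an unadjusted p under 0.05, 15 members (50%, against 4.22% of all genes) were higher and 0 lower. The median was 0.41, with 0.23 and 0.21 in pairs 1 and 2 and 0.84 in pair 3. Egr1, a zinc finger transcription factor, had 81.2, 65.8 and 79.1 CPM in the Atg5-knockout libraries and 42.1, 22 and 7.59 CPM in the controls. The groups did not overlap, but the controls differed widely among themselves. The log2 fold change of 1.92 ± 0.39 had an adjusted p of 0.255 in edgeR's test, and without control 1 it was 2.45 with 0.00134.

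Other members differed in how even the controls were. Dusp1, a phosphatase of MAP kinases, had 2048, 3542 and 3168 CPM against 1078, 2825 and 573 CPM (log2 fold change 1.23, adjusted p = 0.461 in edgeR's test). Myc had 71.1, 112 and 108 CPM against 58.5, 58 and 49.3 CPM (0.79, adjusted p = 0.373), and passed without control 1 at 1.04 (adjusted p = 0.0251). The controls were close together for Myc and far apart for Dusp1. Jun, a subunit of AP-1, had 31, 27.6 and 10.9 CPM against 19.9, 13.2 and 6.04 CPM (0.85, adjusted p = 0.317). In bone marrow the median of the list was -0.23, and 5 of 28 tested members were positive. The matching values over all genes in bone marrow are not given.

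The interferon response genes had a median of 0.39, with 0.38, 0.26 and 0.35 in the 3 pairs. Of 41 tested, 36 were positive and 26 were higher in all pairs, as were 16.5% of all genes. At an unadjusted p under 0.05, 12 of the 41 (29.3%, against 4.22% of all genes) were higher and 0 lower. The lowest adjusted p in edgeR's test was 0.372, so 0 of them passed. Gbp2, a guanylate-binding protein, had 40.5, 19 and 15 CPM against 22.7, 13.1 and 7.23 CPM (log2 fold change 0.81, adjusted p = 0.372). Ifit3, which is induced by type I interferon, had 9.08, 2.88 and 2.65 CPM against 2.7, 1.48 and 1.06 CPM (1.35, adjusted p = 0.386). For both genes the libraries numbered 1 were the highest of their groups, as they were on the B cell list, and the groups overlapped. The part of lymphocyte RNA in these values was not tested. Without control 1 the median was 0.26, and in bone marrow 0.055, where the median over all genes is not given.

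The promoters of Ifit3 and Gbp2 are printed to show the element through which interferon acts, with its core (GAAA, any 2 bases, GAAA, on either strand) in capitals. In RefSeq (GRCm38.p6) it was found in 18 of the 31 genes of the interferon list that have a promoter there. Both windows are laid out like those of Gdpd3 and Serpina11. A match describes the sequence only.
Ifit3, chr19:34583279-34583578, plus strand: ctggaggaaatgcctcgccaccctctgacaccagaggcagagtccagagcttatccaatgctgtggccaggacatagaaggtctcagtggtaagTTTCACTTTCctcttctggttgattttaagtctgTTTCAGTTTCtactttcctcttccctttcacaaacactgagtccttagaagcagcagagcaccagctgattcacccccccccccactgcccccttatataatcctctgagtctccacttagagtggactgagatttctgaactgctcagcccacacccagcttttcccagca
Gbp2, chr3:142620413-142620712, plus strand: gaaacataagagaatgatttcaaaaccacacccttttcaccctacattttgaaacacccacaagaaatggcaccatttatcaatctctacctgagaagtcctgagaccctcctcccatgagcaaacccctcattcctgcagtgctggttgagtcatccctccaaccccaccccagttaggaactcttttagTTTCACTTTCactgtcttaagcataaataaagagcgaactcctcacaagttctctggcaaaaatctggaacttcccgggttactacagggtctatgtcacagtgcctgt

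**Figure D5:**
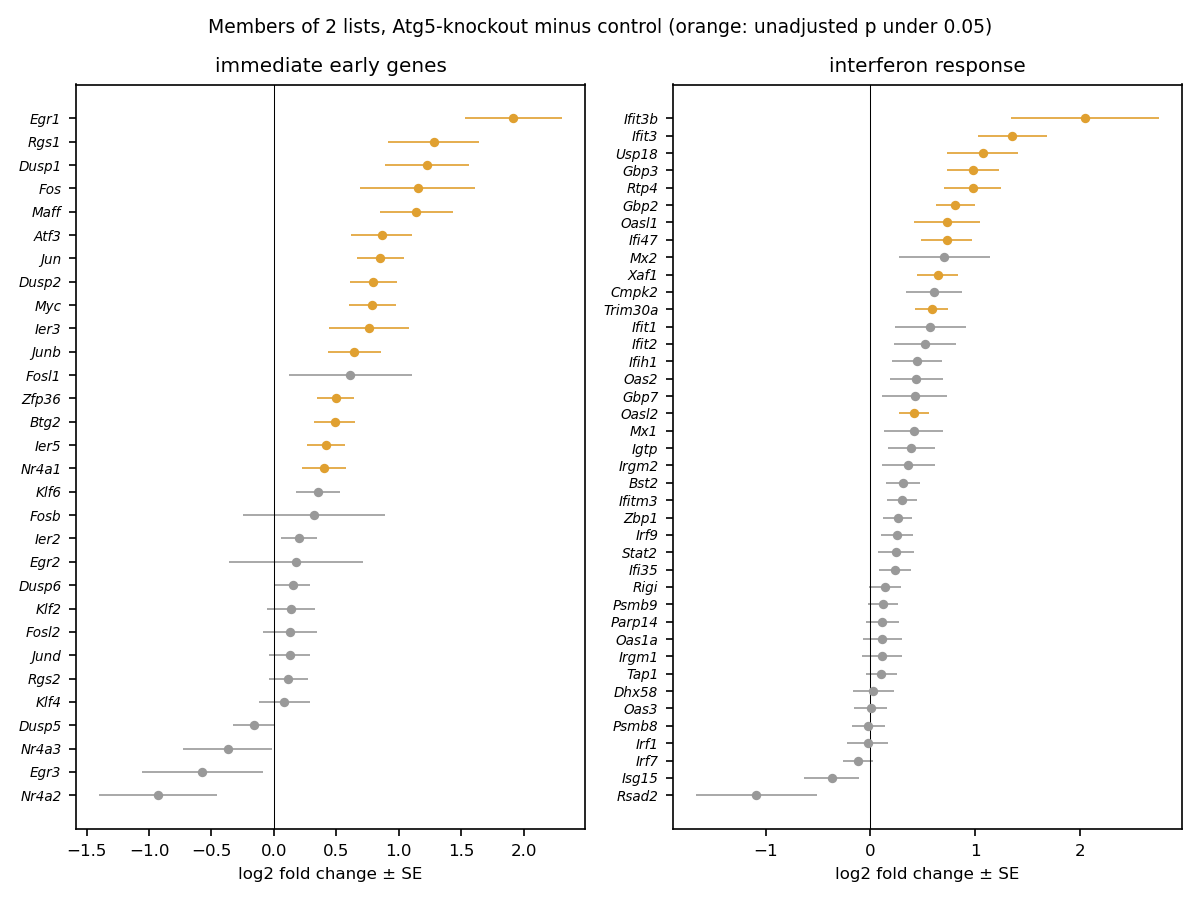
Log2 fold change (Atg5-knockout minus control, ± SE) of the tested immediate early genes and interferon response genes in blood, with orange for an unadjusted p under 0.05 and 1 interferon gene not drawn. Of the 30 tested immediate early genes 26 and of the 41 tested interferon genes 36 had a value above 0, and none of them passed the adjusted threshold of edgeR's test.

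Among genes of inflammation, 9 of 29 tested NF-κB targets (31%, against 4.22% of all genes) had an unadjusted p under 0.05 in the higher and 1 in the lower direction, and the median was 0.059. Cd69, an early activation marker, had 20.2, 15.3 and 18.7 CPM against 8.83, 12.8 and 3.19 CPM (log2 fold change 1.29, adjusted p = 0.49 in edgeR's test). Il1b and Tnf had log2 fold changes of 0.99 and -1.14 (adjusted p = 0.524 and 0.615). Among 32 Toll-like and NOD receptors 24 were positive and the median was 0.23. Cd14, the co-receptor for lipopolysaccharide, had 1.04 and Tlr7, a sensor of single-stranded RNA, 0.81 (adjusted p = 0.407 and 0.504).

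Among 30 cytokines and chemokines 20 were positive and the median was 0.23. Retnla, the resistin-like molecule α, had 113, 103 and 273 CPM against 157, 380.4 and 442 CPM (log2 fold change -1.01, adjusted p = 0.398 in edgeR's test). It passed without control 1 at -1.29 (adjusted p = 0.0307), and in bone marrow at -2.08 (adjusted p = 0.0265).

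Genes of autophagy and the lysosome differed little as groups. The 40 tested genes of the autophagy machinery had a median of -0.014. At an unadjusted p under 0.05, 1 (2.5%) was higher and 3 (7.5%) lower, against 4.22 and 3.37% of all genes. Wipi1, which binds phosphoinositides on the forming autophagosome, had 25.1, 28.6 and 33.5 CPM against 38.4, 36.9 and 39.5 CPM (log2 fold change -0.41, adjusted p = 0.638 in edgeR's test). Atg16l1, the partner of the ATG5 conjugate, had -0.41 and its paralog Atg16l2 0.50 (adjusted p = 0.638 and 0.657). Sqstm1, which encodes the autophagy receptor p62, had 385, 480.0 and 540.0 CPM against 391, 424 and 536 CPM. The groups overlapped for Sqstm1, with a log2 fold change of 0.055. The 40 lysosomal enzymes and membrane proteins had a median of -0.10, with Arsb, an arylsulfatase, at -0.77 (adjusted p = 0.466). The 17 genes of the lysosomal proton pump had a median of -0.072.

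No gene of the stress lists passed the adjusted threshold of edgeR's test. The 25 genes of the ATF4 amino acid response had a median of 0.11. At an unadjusted p under 0.05, 4 of them (16%, against 4.22% of all genes) were higher and 0 lower. Atf4 itself had 303, 368 and 292 CPM against 185, 255 and 171 CPM (log2 fold change 0.67, adjusted p = 0.258 in edgeR's test). Cebpb, which encodes a partner of ATF4, had 589, 690.4 and 818 CPM against 403, 456 and 382 CPM (0.75, adjusted p = 0.258). The groups did not overlap for either gene. Ddit4, an inhibitor of mTORC1, had 384, 584 and 813 CPM against 179, 454 and 398 CPM (0.83, adjusted p = 0.262).

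The 25 genes of the unfolded protein response had a median of 0.019, with the chaperone Hspa5 at 0.33 (adjusted p = 0.657 in edgeR's test). The 12 heat shock chaperones had a median of 0.28 and 9 positive members, with Hspa8 at 0.46 (adjusted p = 0.638). Among 23 NRF2 targets, Nqo1, a quinone reductase, had 0.47 and Ftl1, the ferritin light chain, -0.38 (adjusted p = 0.636 and 0.575). Of 15 p53 targets 13 were positive and the median was 0.20, with pair medians of -0.024, 0.081 and 0.34. The 31 proteasome subunits had a median of -0.074.

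Metabolic lists gave small medians. The 23 genes of cholesterol synthesis had a median of 0.25, with 19 positive and pair medians of -0.061, 0.19 and 0.45. At an unadjusted p under 0.05, 4 of them (17.4%, against 4.22% of all genes) were higher. Sc5d, a sterol desaturase, had 0.57, and Sqle and Fdft1, which act around squalene, had 0.52 and 0.52 (adjusted p = 0.521, 0.575 and 0.584 in edgeR's test). The 23 glycolysis genes had a median of -0.12, negative in all pairs, and Hk1, a hexokinase, had 128, 109 and 106 CPM against 163, 143 and 139 CPM (-0.38, adjusted p = 0.618). The 65 nuclear genes of the respiratory chain had a median of -0.08, with 0 in either direction at an unadjusted p under 0.05. The 37 genes of purine metabolism had a median of 0.054.

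Genes of eosinophil granule proteins had mostly negative log2 fold changes without passing the test. The eosinophil surface markers Ccr3, Adgre1, Siglecf and Il5ra lay nearer 0, at -0.071, -0.00028, -0.16 and 0.081. The whole list of 12 eosinophil markers, which shares genes with the granule list, had 11 negative members and a median of -0.23. At an unadjusted p under 0.05 in edgeR's test, 5 of the 12 (41.7%, against 3.37% of all genes) were lower. Among these was Alox15 at -0.44, which does not encode a granule protein. Of 10 granule protein genes 1 was positive, and the median was -0.32. At an unadjusted p under 0.05, 4 of them (40%, against 3.37% of all genes) were lower. Prg2, which encodes major basic protein, had 6435, 12441 and 11259 CPM against 9284, 13386 and 21519.9 CPM (log2 fold change -0.52, adjusted p = 0.518 in edgeR's test). Ear6, an eosinophil-associated ribonuclease, had -0.50 (adjusted p = 0.524). Epx, the gene that carries the Cre allele in both groups, had 242, 494 and 389 CPM against 417, 423 and 855 CPM (adjusted p = 0.652). The groups overlapped for Prg2 and Epx, and within pair 2 the median of the list was 0.072. In bone marrow 9 of 9 tested members were positive, with a median of 0.19, but the matching values over all genes there are not given.

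Growth and survival genes were examined because both groups were under excess interleukin-5. The 25 genes of the interleukin-5 receptor and STAT5 pathway had a median of 0.042. Il5, the gene that the transgene carries, had 260.4, 321 and 219 CPM against 489, 353 and 323 CPM (log2 fold change -0.54, adjusted p = 0.529 in edgeR's test). Bcl2l1, which encodes the survival factor BCL-XL, had -0.68 and Mcl1, another survival factor, 0.42 (adjusted p = 0.461 and 0.653). The 46 genes of the cell cycle and DNA replication had a median of -0.27. At an unadjusted p under 0.05, 5 (10.9%) were lower and 2 (4.35%) higher, against 3.37 and 4.22% of all genes. Ccnb2, a mitotic cyclin, had 7.24, 6.84 and 6.01 CPM against 11.1, 9.58 and 10.6 CPM (-0.64, adjusted p = 0.576). The median over 79 cytosolic ribosomal protein genes was 0.13, but 0.42 in pair 1, -0.17 in pair 3 and 0.0023 without control 1.

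Of the marker lists of other cells, those of red cells, platelets, B cells and T and NK cells had nearly all members on the same side of 0, whereas those of neutrophils, monocytes and basophils did not. All 13 tested red cell markers had a negative log2 fold change, with a median of -1.96, and of -0.96 without control 1. At an unadjusted p under 0.05, 11 of them (84.6%, against 3.37% of all genes) were lower. Alas2, the erythroid enzyme of haem synthesis, had 121, 42.6 and 60.8 CPM against 4241, 79.8 and 251 CPM (adjusted p = 0.453 in edgeR's test, and 0.0126 without control 1). Of 16 T and NK cell markers 15 were positive, and of 12 B cell markers 12, with medians of 0.90 and 0.89. Ncr1, the NK cell receptor NKp46, had 31.5, 44.5 and 27.5 CPM against 24.8, 9.1 and 3.64 CPM (1.83, adjusted p = 0.372), and Igkc, the immunoglobulin κ constant region, 505, 158 and 148 CPM against 259, 90 and 70 CPM (0.95, adjusted p = 0.0992).

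Without control 1, Atg5-knockout 1 has no partner in the block, so only pairs 2 and 3 give the difference. Without the block as well, edgeR's test called 6 genes, 5 of them among the 10 above. With the block it called 39 of 13865 tested genes, namely the 10 above and 29 more, 23 of them higher and 6 lower. Of these 29, 7 were immunoglobulin or J chain genes and 3 were T and NK cell markers, among them Ncr1 at 2.58 and Cd3g, a chain of the T cell receptor complex, at 2.22 (adjusted p = 4.7e-05 and 0.0184 in edgeR's test). Of the pathway genes described above, Egr1, Myc, Retnla and Lilra5 were among the 29. The shares of these kinds of genes among all tested genes are not given, so the counts have no background beside them.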

How the data were processed

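Libraries were TruSeq Stranded mRNA, sequenced as 100 bp single reads. Per the file headers the authors deposited counts per gene from featureCounts with Ensembl annotation of GRCm38, without a strand option, after alignment with HISAT2 2.2.1. The study's Methods name a later annotation, and the headers were followed. The counts were used as deposited, and 12 columns matched the labels. Of 53801 genes, 23553 had a count in blood. Totals of 18885052 to 25072780 counts per library limit precision for genes of few counts.

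Genes passing filterByExpr (minimum count 10, minimum total 15) in the 6 blood libraries were fitted in edgeR 4.0.16 (R 4.3.3) with TMM factors, genotype and the replicate number as a block, and tested by quasi-likelihood with Benjamini-Hochberg adjustment. The block followed from the check of pairing, in which each of the 3 pairs correlated above 0.1 in its deviations from the group means (0.568, 0.262 and 0.35), and not from a statement of the labels. The biological coefficient of variation was 0.225 with the block and 0.365 without. Bone marrow was fitted in the same way but without the block. In the interaction over all 12 libraries the block applied to the blood libraries only. Differences within pairs are of log2 CPM with a prior count of 2. The fit was tested on simulated data. Alternatives were DESeq2 1.42.0, limma-voom (limma 3.58.1), other scalings and filters, no block, and each replicate left out. The study itself used DESeq2 1.32.0.

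The members and lists were chosen with earlier results of these data known. Genes named were those called, in each list described the 3 of lowest p and that of highest mean CPM or some of these, and Atg5, Arg1, Arg2, Gdpd3 and Serpina11. The neighbours, the eosinophil surface markers and the genes named for the fit without control 1 were chosen after their values were seen. The largest fold changes that missed the threshold are not listed. Values of some list members are not reported here.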

Additional observations from a re-analysis of the deposited data

How the results depend on the processing

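Of the values of the 10 called genes under 16 alternatives (all but that without control 1 and without the block), 150 of 160 kept their direction and their call, 10 lost the call and 0 reversed. Without the replicate block edgeR's test called 5 genes higher and 0 lower (past both thresholds 5 and 0, and at an unadjusted p under 0.05 148 and 199), and Gm10693, Pira12, Gm9967, Lta4h and Serpina11 were not among them. Without control 1 and without the block the counts were 5 and 1 (past both thresholds 5 and 1), and Gm10693, Pira12, Gm9967, Lta4h and Gm48780 were not called. DESeq2 with the replicate block called 50 higher and 37 lower, past both thresholds 16 and 10, and all 10 genes were among its calls. DESeq2 without the block called 15 and 8 (12 and 4), without Lta4h. limma-voom with the block called 8 and 9 (7 and 6), without Gm9967. Scaling by library size alone gave 16 and 4 (12 and 3), without Lta4h, and moved the median of all genes to 0.102. No filter on low counts gave 152 and 148 (24 and 35). With the block, leaving out 1 library also takes its same-numbered partner out of the genotype difference. Leaving out 1 library gave 7 to 106 higher and 5 to 95 lower genes, and past both thresholds 7 to 32 and 2 to 52. All 10 genes stayed called, except Gm9967 without Atg5-knockout 3 or control 3. Without control 1 the counts were 30 and 9, without Atg5-knockout 1 59 and 28, without Atg5-knockout 2 103 and 95, and without control 2 106 and 95. Leaving out both libraries numbered 1, chosen after seeing the data, gave 40 and 22 (22 and 3). The interaction with tissue gave 165 genes in DESeq2, 0 without the block, and 2 (Crhbp and Egr1) without control 1. The cause of these differences was not tested.

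Atg5 turned to 0.0791 with library size alone and to 0.13 without both libraries numbered 1, and ran from -0.22 to 0.131 with 1 library left out (reversed at 0.123, 0.0661, 0.131 and 0.0616). Sqstm1 ran from -0.00963 to 0.0946 (reversed at -0.00521 and -0.00963). Pathway medians took the other sign in 70 of 592 cases, in 18 of 37 lists, so the sign of a median near 0 should not be read. With 3 libraries a group, small differences in genes of few counts were not detectable.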
